A study of Homo sapiens with 8 samples.

Results

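H3K4me3 was examined where no gene is annotated to start. In HL-60 cells, an established human promyelocytic leukemia line, the H3K4me3 peaks of 4 libraries were merged wherever they overlapped or touched, which gave 19906 regions. Of these, 11413 held a peak of each of the 4 libraries, and 901 of the 11413 (7.89%) had no transcription start site (TSS) inside and a centre more than 5 kb from every TSS of GENCODE release 44 placed on hg19. These 901, called distal regions here, were thus chosen by the presence of an H3K4me3 peak in the 4 libraries and by the annotation, and their H3K4me3 values are given as a description. Another 404 regions had no TSS inside but a centre within 5 kb of one, and 10108 held a TSS.

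The ATRA-treated cells received 1 µM all-trans retinoic acid (ATRA) in ethanol for 4 days, which drives HL-60 cells towards granulocytes, and the control cells received ethanol alone for the same time, with fresh medium and agent midway in both. Each condition was represented by 2 replicates per mark, which gave 4 H3K4me3 and 4 H3K27ac libraries, all from this 1 cell line. Nothing in the labels says whether replicates were separate cultures, so their spread may be technical. The files held broad peaks called in each library separately and no read counts, so the depth behind a peak is unknown.

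Trimethylation of histone H3 at lysine 4 (H3K4me3) marks nucleosomes beside active or poised promoters, and it is laid down readily on stretches rich in unmethylated CpG. Acetylation of lysine 27 (H3K27ac) is found on active promoters and active enhancers, and enhancers usually carry the monomethylated form of lysine 4 with little of the trimethylated one. H3K4me3 away from the start of an annotated gene is known from starts that an annotation lacks, from strong enhancers, and from genes read by RNA polymerase III, such as those of transfer RNAs, which GENCODE does not list for the nuclear genome. A peak in a bulk library does not tell whether all cells carried the mark or only some of them.

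The label of the cells was checked against H3K4me3 at the start sites of marker genes. Of 10 myeloid genes, 6 (MPO, CD33, SPI1, CEBPA, CEBPE and CSF3R) had a peak over a TSS in each of the 4 libraries, PRTN3 had one in the 2 ATRA libraries, and AZU1, ELANE and LYZ had none. Of 8 genes of T, B, erythroid and megakaryocytic cells, 6 had no peak in any library, GATA1 had one in the 2 control libraries, and KLF1 in 3 libraries. Peak numbers differed between libraries, from 13241 to 16487 for H3K4me3, where control replicate 2 had the fewest, and from 15457 to 39332 for H3K27ac, where control replicate 1 had the fewest and ATRA replicate 2 the most.

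Transfer RNA genes can be read directly from the sequence, because their internal promoter holds a B box. The B box was searched as GTTCGANTC on both strands, and 34 of the 901 distal regions held one. In 23 of the 34, at least 1 B box lay in a sequence that folds like the ends of a tRNA, with at least 4 of 5 pairs in the stem around it and at least 6 of 7 pairs between the first and last bases. These 23 regions held 28 such tRNA-like sequences, 6 of which are printed here on hg19 with the B box in capitals, since they show what these regions contain. RefSeq (GRCh38.p14, used for names only) was searched for tRNA genes between the same flanking protein-coding genes. For 23 of the 28, at least 1 such gene has anticodon letters that occur within positions 33 to 38 of the sequence. For 15 exactly 1 does. The anticodon of the sequence itself was not identified, and 1 sequence near H4C8 matched names with TTG and with TGA. The matched RefSeq gene is named after each position.
HSPA6, chr1:161500133-161500214, minus strand, TRL-CAG1-6 (leucine): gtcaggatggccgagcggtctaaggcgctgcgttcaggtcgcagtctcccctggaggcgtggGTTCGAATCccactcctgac
HSPA6, chr1:161500903-161500973, plus strand, TRG-TCC2-6 (glycine): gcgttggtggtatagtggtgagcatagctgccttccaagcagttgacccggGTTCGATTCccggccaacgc
FCGR2C, chr1:161581737-161581819, minus strand, TRL-CAA6-1 (leucine): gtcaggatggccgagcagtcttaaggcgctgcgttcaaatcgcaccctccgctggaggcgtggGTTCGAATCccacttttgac
H2AC12, chr6:27125906-27125976, plus strand, TRH-GTG1-5 (histidine): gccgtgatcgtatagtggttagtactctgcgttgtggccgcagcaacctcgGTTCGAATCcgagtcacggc
GPX5, chr6:28510892-28510963, minus strand, TRR-TCG5-1 (arginine): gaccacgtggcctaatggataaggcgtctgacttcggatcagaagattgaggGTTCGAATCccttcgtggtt
EEF2K, chr16:22207033-22207113, minus strand, TRL-TAG3-1 (leucine): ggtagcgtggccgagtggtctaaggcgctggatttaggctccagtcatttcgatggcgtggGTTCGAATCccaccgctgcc

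The tRNA-like sequences were few beside the distal regions as a whole. The same search over chromosomes 1 to 22 and X found 923 tRNA-like sequences, of which 28 lay in distal regions, 7 in the regions within 5 kb of a TSS, 117 in the regions with a TSS inside and 771 in no H3K4me3 region common to the 4 libraries. The search finds letters and stems only, so pseudogenes are among its matches. Counted in the central 1 kb alone, 1.22% of the distal regions held a B box, against 1.01% of those with a TSS inside and 0.743% of those within 5 kb of one.

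Of the 23 distal regions with a tRNA-like sequence, 9 lay on chromosome 6 between 26303583 and 28852294, a stretch where histone genes and tRNA genes lie together. Their nearest protein-coding genes include H4C8, H2AC12, H2BC13 and H2BC17, which encode core histones, and ZNF184, ZSCAN9 and ZSCAN23, which encode zinc finger proteins. The longest of the 9, chr6:26303583-26316990 near H4C8, was 13408 bp long. The bases under H3K4me3 came to 9814 and 11576 bp in the ATRA libraries and 9497 and 7310 bp in the control libraries. Those under H3K27ac came to 239 and 5432 bp in ATRA replicates 1 and 2 and 0 and 5762 bp in control replicates 1 and 2, so the replicates differed far more than the conditions did.

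The same split by replicate ran through the tRNA-like regions. H3K27ac was present in 13 and 19 of the 23 in ATRA replicates 1 and 2 and in 8 and 19 in control replicates 1 and 2. In all 4 H3K27ac libraries, 7 of the 23 carried a peak, where 46.6% of the distal and 61.7% of all H3K4me3 regions did. In no library did 4 of the 23 carry one, near GPX5, ZSCAN23, MRTFB and OR6S1, where 14.0% of the distal and 10.7% of all regions had none. The tRNA-like region near HSPA6, which encodes a heat shock protein and lies beside the Fc receptor genes of chromosome 1, was acetylated in each library, over 1573 and 4107 bp with ATRA and 1184 and 4439 bp in control cells. The merged length of the 23 ran from 1694 to 13408 bp with a median of 4245 bp.

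**Figure D1:**
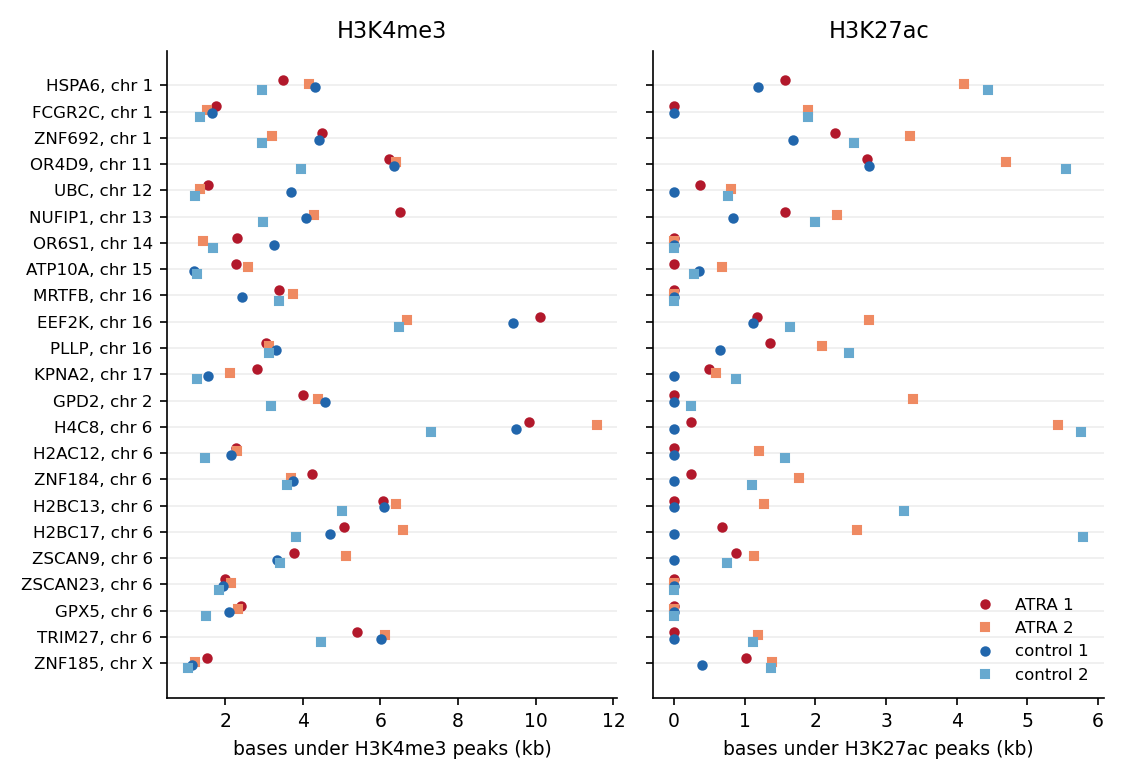
Bases under H3K4me3 peaks (left, kb) and under H3K27ac peaks (right, kb) in each of the 23 distal regions with a tRNA-like sequence, named by the nearest protein-coding gene and chromosome. Each point is 1 library, red and orange for ATRA replicates 1 and 2 and dark and light blue for control replicates 1 and 2; every region carries H3K4me3 in 4 libraries by definition, while H3K27ac lies at 0 in control replicate 1 for 15 of them.

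The other 11 distal regions with a B box had no tRNA-like fold at it. They lay near ELF1, OR6S1, KLF13, SKOR1, ZNF516, VAV1, INSR, HDAC4, SHOX2, JARID2 and FAM78A. An alternative chosen after the data were seen left out the 23 tRNA-like regions. The ATRA minus control differences of H3K27ac share and covered bases then kept their direction, as did the distal minus promoter difference of the share. As 23 of 901 regions are too few to turn these directions, this outcome carries little information.

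Distal regions were short. Their merged length had a median of 2335 bp, with quartiles at 1667 and 3460 bp and a range from 480 to 15225 bp, against a median of 5994 bp for the regions with a TSS inside and 1915 bp for those within 5 kb of one. In single libraries, H3K4me3 covered a median of 1915 and 1630 bp of a distal region with ATRA and 1888 and 1048 bp in control cells. Control replicate 2, the library with the fewest H3K4me3 peaks, lay apart, and its peaks covered 51.3% of the bases of the distal regions, against 73.1% to 80.8% in the other 3 libraries. The deposited −log10 q of the best peak in a distal region had medians of 15.5 and 11.5 with ATRA and 17.5 and 13.3 in control cells. At the regions with a TSS inside, the medians were 16.1 and 13.6 with ATRA and 18.3 and 14.5 in control cells. At single regions this value could vary widely between libraries. Over a region upstream of PTMA, described below, it was 2.29 and 1.69 with ATRA and 36.0 and 7.82 in control cells.

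**Figure D2:**
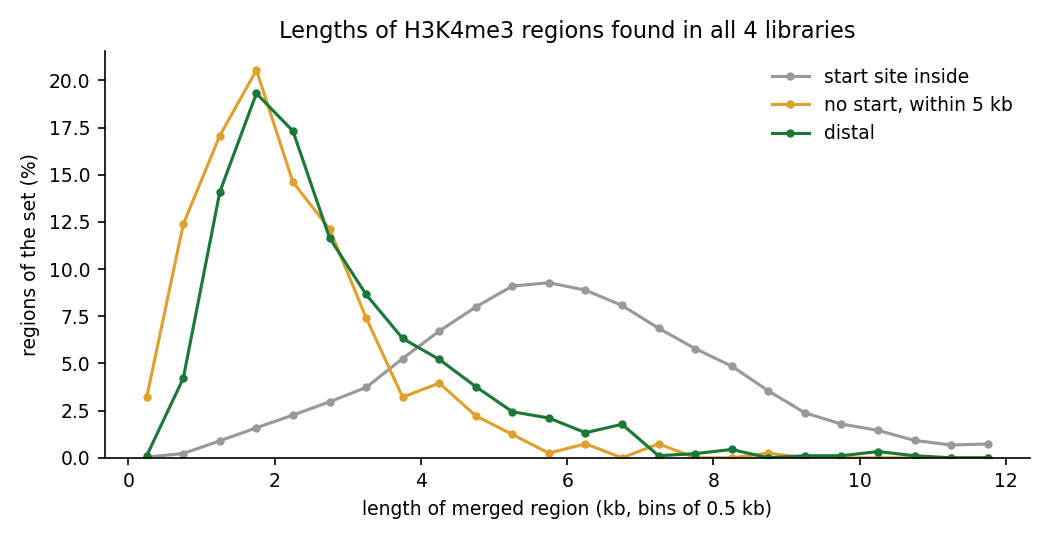
Lengths of the merged H3K4me3 regions found in all 4 libraries (x, kb, in bins of 500 bp, regions under 12000 bp) as a percentage of each set (y): 901 distal regions, 404 without a TSS inside but within 5 kb of one, and 10108 with a TSS inside. The distal regions are most frequent between 1500 and 2000 bp, where 174 of them lie.

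In bases under H3K4me3, both ATRA libraries exceeded both control libraries in 245 distal regions, or 27.2%, where the same held for 40.2% of all 11413 regions. Both lay below both control libraries in 64 distal regions, or 7.10%, against 5.2% of all regions. These counts come from the peaks that chose the regions, and control replicate 2 covered the fewest bases.

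The 6 longest distal regions were spread over 5 chromosomes. The longest, chr8:130668657-130683881, lay in an intron of CCDC26, a long noncoding RNA gene, and its H3K4me3 covered 3204 and 15225 bp in ATRA replicates 1 and 2 and 2238 and 2301 bp in the control replicates. Its whole length therefore rests on ATRA replicate 2. After the H4C8 region followed chr2:232543575-232554201 upstream of PTMA, which encodes prothymosin alpha, with 3598 and 5161 bp under H3K4me3 with ATRA and 10627 and 8383 bp in control cells. Next were a region in an intron of the noncoding gene BLACE, nearest to INSIG1, a sensor of sterol levels (10343 bp), one over an exon of KBTBD11 (10262 bp), and one upstream of EEF2K, the kinase of elongation factor 2 (10217 bp). The EEF2K region holds the leucine tRNA-like sequence printed above, and its H3K4me3 covered 10115 and 6675 bp with ATRA and 9409 and 6480 bp in control cells.

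Distal regions lay a median of 12890 bp from the nearest TSS, with quartiles at 8136 and 22348 bp. Of the 901, 329 lay within 10 kb and 59 more than 50 kb away. The gap from the edge of a distal region to the nearest H3K4me3 region with a TSS inside had a median of 36563 bp. Its quartiles were 13100 and 94036 bp and its lowest value 481 bp, so some distal regions lay beside promoter H3K4me3. The nearest TSS belonged to a protein-coding gene for 433 regions, to a lncRNA for 227 and to a processed pseudogene for 99. By the position of their centre, 323 (35.8%) lay in an intron of a protein-coding gene, 34 in one of its exons, 102 in other genes and 442 (49.1%) between genes. They lay upstream of the nearest TSS in 429 cases and downstream in 472.

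Just inside the 5 kb limit were regions near LGALSL (5024.5 bp from a TSS), COTL1 (5058.5 bp) and FAM156B (5066 bp), and just outside were regions near XRN2 (4983.5 bp), AC007919.2 (4981 bp) and SCARB1 (4973 bp). These are distances to the nearest TSS of any gene, which belonged to the named gene only at SCARB1. H3K27ac was absent in each library from the FAM156B and XRN2 regions and present in each at COTL1 and SCARB1, so both sides of the limit held both kinds.

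The region farthest from any TSS was chr13:105789730-105793744, 271428 bp from a lncRNA start and 326479 bp upstream of DAOA. H3K4me3 covered 3918 and 3996 bp of it with ATRA and 3312 and 2595 bp in control cells, and H3K27ac covered 2982 and 2986 bp with ATRA and 2294 and 3881 bp in control cells. Both ATRA libraries exceeded both control libraries in H3K4me3, while for H3K27ac the ATRA values lay between the control values. The next farthest are named by their nearest protein-coding gene. Brackets give the distance to the nearest TSS of any gene, then to the named gene. These regions lay nearest to TLE1, a transcriptional corepressor (242058.5 and 500167.5 bp), and SEL1L, which acts in the removal of misfolded proteins (211627 and 1726353 bp). The others were nearest to HS6ST1 (128630 and 391338 bp), POT1, a telomere protein (123606 and 631845 bp), and CDH10 (122828 and 923775 bp). The SEL1L region stood out among these, with H3K4me3 over 304 and 1096 bp with ATRA and over 5775 and 5105 bp in control cells.

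Distal regions were unevenly spread over chromosomes. Chromosome 13 had the largest share of its H3K4me3 regions in the distal class, 48 of 256 or 18.8%. Chromosome 18 followed with 12.97% and chromosome 6 with 12.5%, and chromosome 16 had the smallest with 4.84%. The order differed by number per Mb of chromosome. Chromosome 19, with a share of 4.89%, then had the most, 0.626, and chromosome X the fewest, 0.161, while chromosome 13 had 0.417. Within stretches of 1 Mb, the densest were 10 distal regions on chromosome 6 between 27060303 and 27870483 and 9 between 28180385 and 28983300, of which 4 in each held a tRNA-like sequence. Of these 19, 0 were acetylated in all 4 H3K27ac libraries, where 46.6% of the distal and 61.7% of all regions were. No H3K27ac in any library was seen for 1 of the 10 in the first stretch and 5 of the 9 in the second. Of the distal regions 14.0% and of all regions 10.7% had none, so the second stretch lay above these shares. The 4 tRNA-like regions of each stretch had 0 bp under H3K27ac in control replicate 1, the library with the fewest peaks. The 901 regions had 814 different nearest protein-coding genes, and 11 genes were nearest to 3 regions each, among them BCL2, a suppressor of apoptosis, ARID1B, a subunit of a chromatin remodeler, and the zinc finger gene ZNF217.

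H3K27ac was then read at the distal regions, a measurement the choice of regions did not use. An H3K27ac peak overlapped 584 (64.8%) of the distal regions in ATRA replicate 1, 729 (80.9%) in ATRA replicate 2, 463 (51.4%) in control replicate 1 and 678 (75.2%) in control replicate 2. The mean was 72.9% ± 11.4 with ATRA and 63.3% ± 16.9 in control cells (SD, n = 2 libraries each). The conditions overlapped, as control replicate 2 lay above ATRA replicate 1. The difference of 9.545 percentage points was smaller than the SD of either condition (exact permutation test, two-sided, p = 0.667, where 2 libraries against 2 allow no p below 0.33).

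Within replicate numbers, ATRA exceeded control by 13.4 points in replicate 1 and by 5.66 points in replicate 2. The libraries ranked by this share as they ranked by their number of H3K27ac peaks, 15457, 28200, 29616 and 39332. When each library was cut to an equal number of peaks, the difference was -0.444 points with the longest peaks kept. With the peaks of highest −log10 q kept, a deposited value that was not checked, it was -12.9 points. The direction thus did not hold at equal peak numbers. Without control replicate 1 of H3K27ac, the difference was -2.39 points.

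**Figure D3:**
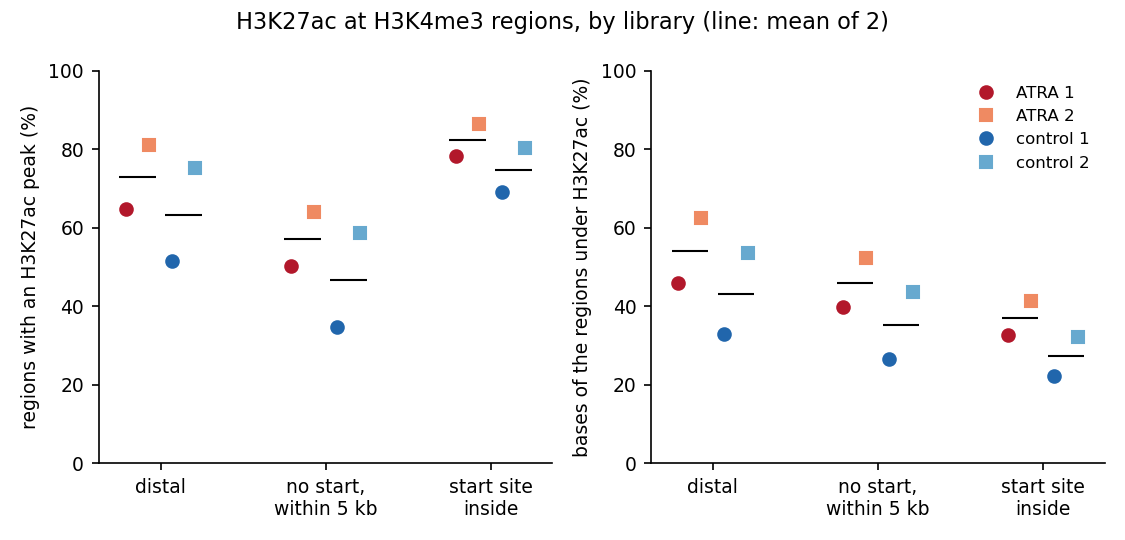
Percentage of regions with an H3K27ac peak (left) and percentage of their bases under H3K27ac (right) for the 901 distal regions, the 404 within 5 kb of a TSS and the 10108 with a TSS inside. Each point is 1 library and each line the mean of the 2 libraries of a condition; among the distal regions the 4 libraries run from 51.4% to 80.9% on the left and from 32.9% to 62.4% on the right.

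Fewer distal regions than promoter regions carried H3K27ac, but it covered a larger percentage of the bases of the distal set. At the regions with a TSS inside, the share with a peak was 78.2% and 86.3% with ATRA and 69.2% and 80.2% in control cells, higher than at distal regions in 4 of 4 libraries. The mean difference, distal minus promoter, was -10.4 points (exact sign-flip test over 4 libraries, two-sided, p = 0.13, the smallest it allows). The regions within 5 kb of a TSS had the lowest share, 50.2% and 63.9% with ATRA and 34.7% and 58.7% in control cells. By bases, H3K27ac covered 45.9% and 62.4% of the distal regions with ATRA and 32.9% and 53.5% in control cells, against 32.6% and 41.2% with ATRA and 22.2% and 32.2% in control cells at the longer regions with a TSS inside. If H3K27ac had to cover at least 0.5 of a region's length, the distal share exceeded the TSS share by 26.6 points.

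The ATRA minus control difference of the share was 1.98 points larger at distal regions (exact permutation test, two-sided, p = 1.00), and it was 5.66 points at distal regions and 6.10 points at promoters in replicate 2. For covered bases, ATRA exceeded control by 10.95 points at distal regions (exact permutation test, two-sided, p = 0.667). That difference was 0.634 points without control replicate 1 of H3K27ac and -6.80 points with equal numbers of the peaks of highest −log10 q.

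Region by region, 420 distal regions (46.6%) were acetylated in all 4 libraries, where 61.7% of all 11413 regions were, and 126 (14.0%) in none, where 10.7% of all were. The other 355 had a peak in some libraries only. In 118 (13.1%, against 7.67% of all regions) a peak was missing from control replicate 1 alone, the library with the fewest peaks, and in 57 (6.33%, against 4.01%) one was found in ATRA replicate 2 alone, the library with the most. Replicate 2 of both conditions, and neither replicate 1, had a peak in 79 (8.77%, against 5.29%), and the opposite held in 3 (0.333%, against 0.333%).

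Where H3K27ac lay over a distal region, its peak was the longer mark in part of the cases. The longest overlapping H3K27ac peak had a median of 2618 and 3334 bp with ATRA and 1841 and 2656 bp in control cells. For all H3K27ac peaks of those libraries, the medians were 1282, 1216, 1275 and 1052 bp. Overlap and the choice of the longest peak both favour long peaks, so these medians do not compare like with like. The longest overlapping peak was longer than the merged H3K4me3 region in 32.0% of cases in control replicate 1 and in 60.5% in ATRA replicate 2. The other libraries lay between them.

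Base composition set the distal regions between the promoter regions and distal regions marked by H3K27ac alone. In the central 1 kb, the median G+C content was 47.5%, and the ratio of observed to expected CpG had a median of 0.352 with quartiles at 0.251 and 0.532. The median ratio was 0.588 at the regions with a TSS inside and 0.202 at 904 H3K27ac regions that were found in the 4 H3K27ac libraries, lay over 5 kb from any TSS and overlapped no H3K4me3 peak. A stretch of 200 bases with at least 50% G+C and a CpG ratio of at least 0.6, a common definition of a CpG island, lay in the central 1 kb of 432 distal regions (47.9%), against 72.7% at promoters and 11.1% at the H3K27ac regions without H3K4me3. The regions within 5 kb of a TSS were close to the distal ones, with a median ratio of 0.375 and an island in 52.5%. These are descriptions of sequence with no test, since regions are not replicates.

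Short motifs of blood cell factors were searched in the same 1 kb on both strands. GAGGAAGT, bound by PU.1, a master regulator of myeloid cells, was present in 9.32% of distal regions, 6.34% of promoter regions and 11.6% of the H3K27ac regions without H3K4me3. TGTGGTT, bound by RUNX factors, was present in 19.1%, 12.4% and 18.6%, and AGATAA, bound by GATA factors, in 43.5%, 32.3% and 44.8%. The regions within 5 kb of a TSS had values like those of the distal regions, 9.16%, 18.6% and 44.3%, and both sets lay nearer to the H3K27ac regions than to promoters for the 3 motifs. AGGGGGCG, the core of the site of the insulator protein CTCF, showed the other order, with 9.66%, 13.8% and 0.996%, and 8.17% within 5 kb of a TSS. TTGCGCAA, a palindrome bound by C/EBP factors, was in 0 distal regions, 35 promoter regions and 0 of the others. These rates were not matched for base composition, which differed between the sets. A match describes letters only and is not a bound site.

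Acetylation was less frequent where CpG was denser in the central 1 kb. The 126 without H3K27ac in any library had a median CpG ratio of 0.516 and an island in 94 (74.6%), whereas the 420 with H3K27ac in the 4 libraries had a median of 0.317 and an island in 156 (37.1%). The central 1 kb is a smaller part of a longer region, so islands off the centre were missed. The PTMA region, acetylated in the 4 libraries, had no island there, though 200 bases elsewhere in it hold 31 CpG. The 126 were also shorter, with a median of 1922 bp against 2762 bp, and lay between genes in 63.5% of cases against 40.2%. Their H3K4me3 peaks had a median deposited −log10 q of 17.7 against 17.1 (mean over the 4 libraries for each region). The soundness of that value was not checked.

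The same order appeared in each library. Island-bearing distal regions carried H3K27ac in 56.9% and 71.3% of cases with ATRA and in 41.0% and 64.4% in control cells, and those without an island in 72.1% and 89.8% with ATRA and in 61.0% and 85.3% in control cells. The difference was between -20.9 and -15.1 points, lower in 4 of 4 libraries (exact sign-flip test, two-sided, p = 0.13, the smallest 4 libraries allow). At promoters the island-bearing regions were also acetylated less often, with differences between -13.1 and -10.1 points. The difference at distal regions minus that at promoters was below 0 in 4 of 4 libraries, with a mean of -6.69 points (exact sign-flip test, two-sided, p = 0.13). At the regions within 5 kb of a TSS, the difference was -24.3 to -14.3 points, so a wide gap was not particular to distal regions. Across 4 steps of the CpG ratio, the share of distal regions with H3K27ac went from 77.8% under 0.2 to 49.1% at 0.6 and over in ATRA replicate 1, and from 65.2% to 34.1% in control replicate 1. Length went the other way, with medians of 2107 bp in the lowest step and 2886 bp in the highest.

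**Figure D4:**
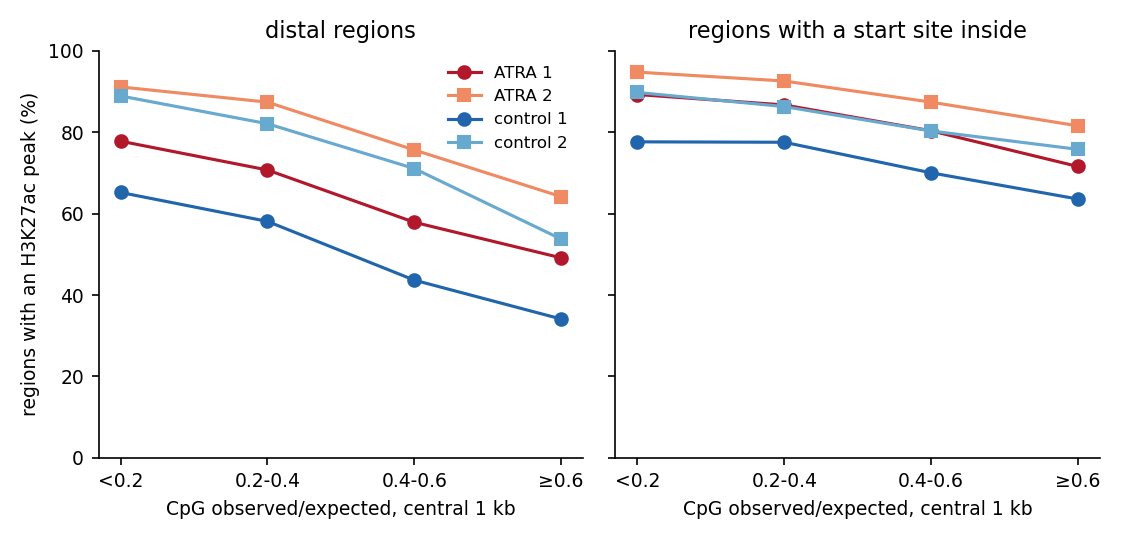
Percentage of regions with an H3K27ac peak (y) in 4 steps of the observed to expected CpG ratio of the central 1 kb (x), for the 901 distal regions (left) and the 10108 regions with a TSS inside (right). Each line is 1 library; in each of the 4 libraries the share declines from step to step in both panels.

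Of the 6 longest distal regions without H3K27ac, those near ZBTB43, ZBED5, KDELR2 and SMAD7 held an island in the central 1 kb, with CpG ratios of 0.690, 0.806, 0.690 and 0.887, and those near SCAND3 and ZNF124 held none. The region near SMAD7, the gene of an inhibitory SMAD of TGF-beta signalling, lay at chr18:46499937-46504493 and had 78.7% G+C. H3K4me3 covered 4557 and 3928 bp of it with ATRA and 3447 and 3034 bp in control cells, more in both ATRA libraries, while H3K27ac covered 0 bp in each library. The region near ZBED5, at chr11:10950223-10955235, had H3K4me3 over 4574 and 4364 bp with ATRA and 4716 and 2624 bp in control cells. The ZNF124 region rests on a single library for its length, with 6520 bp in ATRA replicate 2 and 1214 to 1539 bp in the other 3. The 200 bases richest in CpG are shown for the 2 of these with the highest CpG ratio, with CpG in capitals and hg19 positions on the plus strand.
SMAD7, chr18:46502250-46502449: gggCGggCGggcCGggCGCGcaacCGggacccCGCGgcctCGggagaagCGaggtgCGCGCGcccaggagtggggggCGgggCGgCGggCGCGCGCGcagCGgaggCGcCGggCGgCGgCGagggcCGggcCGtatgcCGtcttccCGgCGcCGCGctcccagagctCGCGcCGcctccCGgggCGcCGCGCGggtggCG
ZBED5, chr11:10952342-10952541: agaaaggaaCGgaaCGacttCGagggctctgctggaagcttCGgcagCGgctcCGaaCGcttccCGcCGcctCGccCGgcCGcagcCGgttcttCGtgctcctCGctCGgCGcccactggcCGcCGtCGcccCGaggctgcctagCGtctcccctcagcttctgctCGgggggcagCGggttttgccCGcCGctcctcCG
These stretches hold 42 and 27 CpG.

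Single regions were compared by the bases under H3K27ac in each library. Both ATRA libraries exceeded both control libraries in 179 distal regions (19.9%), where 29.3% of all 11413 regions did, and both lay below both control libraries in 41 (4.55%), where 3.92% of all did. A peak in both ATRA and no control library was found in 26 distal regions (2.89%, against 3.01% of all), and one in both control and no ATRA library in 7 (0.777%, against 0.394%). The split of 179 higher and 41 lower became 138 and 53 with equal numbers of the longest H3K27ac peaks. It became 54 and 94 with equal numbers of the peaks of highest −log10 q. This second scaling rests on the deposited −log10 q, whose soundness was not checked. It left 75 distal regions with H3K27ac in all libraries, against 333 with the longest peaks. The excess of higher regions did not hold under the second scaling. Its size depended on single H3K27ac libraries, with 194 higher and 160 lower without control replicate 1 and 412 higher and 53 lower without control replicate 2.

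The 6 largest differences in favour of ATRA ran from 2928 to 3628 bp in the mean. The first, chr18:29664511-29668777 upstream of RNF138, which encodes a ubiquitin ligase, had H3K27ac over 3198 and 4267 bp with ATRA and over 0 and 209 bp in control cells. Its centre lay 5193 bp from the RNF138 TSS, near the 5 kb limit, and its edge 804 bp from an H3K4me3 region with a TSS inside. Its H3K4me3 was also longer with ATRA, 4267 and 3286 bp against 2041 and 995 bp. A region in an intron of PDZD7, at chr10:102774448-102779186, had H3K27ac over 3156 and 4311 bp with ATRA and 485 and 534 bp in control cells. In an intron of AMBRA1, a regulator of autophagy, the region had 3655 and 3266 bp with ATRA and 0 and 574 bp in control cells. Over these 3 regions, the lowest ATRA value of 3156 bp lay far above the highest control value of 574 bp.

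The next region, chr14:100687461-100691609, lay 15100 bp upstream of YY1, which encodes a widely expressed zinc finger transcription factor. It was covered over its whole 4149 bp in both ATRA libraries and over 796 and 1338 bp in the control libraries, while H3K4me3 covered 4024 and 3278 bp with ATRA and 3515 and 2014 bp in control cells. Near ZMYM2, the covered length was 4863 and 4346 bp with ATRA against 266 and 2862 bp in control cells, and near RGS9, a regulator of G protein signalling, 2882 and 3698 bp against 241 and 482 bp. The control libraries differed widely at ZMYM2 and little at RGS9.

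The 6 largest differences in favour of control cells ran from 2073 to 3712 bp in the mean. The PTMA region described above had H3K27ac over 6279 and 5568 bp with ATRA and over 9683 and 9587 bp in control cells. Near RIC3, a chaperone of acetylcholine receptors, the region chr11:8225838-8229417 had no H3K27ac in either ATRA library and 3580 bp, its whole length, in both control libraries. Its H3K4me3 covered 716 and 453 bp with ATRA and 3580 and 2265 bp in control cells, so both marks were shorter in the 2 ATRA libraries. The regions near C17orf67 (1826 and 2907 bp in control cells) and ZBED4 (1383 and 2763 bp) also had no H3K27ac in either ATRA library. Near EFCAB2, H3K27ac covered 1599 and 537 bp with ATRA and 2988 and 3601 bp in control cells. Since the regions were ranked by these values, they carry no test.

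**Figure D5:**
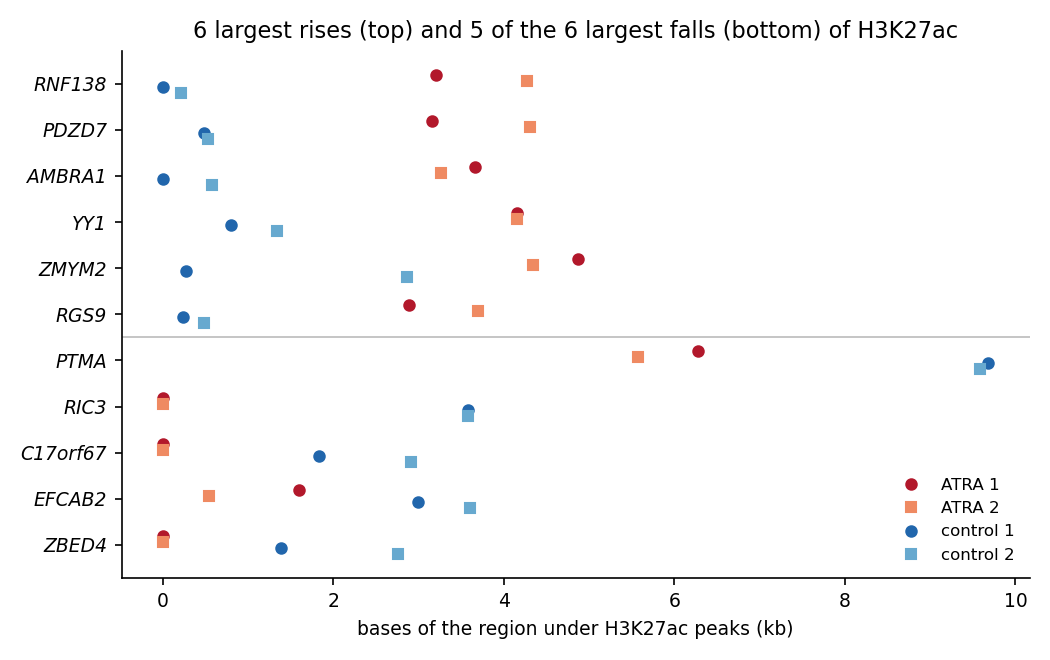
Bases under H3K27ac peaks (x, kb) in the distal regions with the 6 largest differences in favour of ATRA (top) and 5 of the 6 largest in favour of control cells (bottom), among those whose conditions do not overlap, named by the nearest protein-coding gene. Each point is 1 library; the RNF138 region lies at 3198 and 4267 bp with ATRA and at 0 and 209 bp in control cells, and the RIC3 region at 0 with ATRA and at 3580 bp in both control libraries.

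The 200 bases richest in CpG are shown for 3 regions in which the conditions did not overlap, YY1 on the ATRA side and PTMA and RIC3 on the control side, with CpG in capitals and hg19 positions on the plus strand.
YY1, chr14:100687964-100688163: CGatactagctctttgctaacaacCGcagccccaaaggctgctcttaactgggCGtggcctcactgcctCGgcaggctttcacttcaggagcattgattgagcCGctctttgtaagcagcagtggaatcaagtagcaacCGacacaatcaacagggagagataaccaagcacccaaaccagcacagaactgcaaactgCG
PTMA, chr2:232545644-232545843: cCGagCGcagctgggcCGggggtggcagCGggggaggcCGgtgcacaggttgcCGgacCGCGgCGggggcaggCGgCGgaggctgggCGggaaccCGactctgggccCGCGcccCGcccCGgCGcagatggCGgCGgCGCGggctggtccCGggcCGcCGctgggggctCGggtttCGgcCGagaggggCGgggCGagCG
RIC3, chr11:8227951-8228150: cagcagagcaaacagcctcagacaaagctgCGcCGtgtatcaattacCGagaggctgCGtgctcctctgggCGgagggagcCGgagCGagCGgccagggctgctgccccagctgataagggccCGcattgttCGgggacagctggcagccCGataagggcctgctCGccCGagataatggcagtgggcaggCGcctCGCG
They hold 7, 31 and 16 CpG, so the PTMA stretch lies between those at ZBED5 and SMAD7, and those at YY1 and RIC3 lie below both.

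Among the neighbours were regulators of blood cell identity. Of 70 hematopoietic transcription factor genes, 11 were the nearest protein-coding gene of a distal region, and 13 of the 901 regions (1.44%) had such a neighbour, against 0.762% of all 11413 regions. Of these 13, 7 were acetylated in the 4 libraries, where 61.7% of all regions were, and 0 lacked H3K27ac throughout, where 10.7% of all did. Both ATRA libraries exceeded both control libraries in 2 of the 13, 15.4% against the 29.3% of all regions, and the reverse held in 0. The 2 were a region in an intron of ELF1, an ETS factor, with 4653 and 4653 bp under H3K27ac with ATRA and 3062 and 4511 bp in control cells, and one near ETS2, with 650 and 1739 bp with ATRA and 0 and 550 bp in control cells.

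RUNX1, a master regulator of blood formation, had 2 distal regions in its introns. At chr21:36771288-36772915, H3K27ac covered 0 and 1425 bp with ATRA and 0 and 917 bp in control cells, and at chr21:36900175-36902377 it was present in ATRA replicate 2 alone, over 1846 bp. H3K4me3 at the second covered 2158 and 1731 bp with ATRA and 1262 and 398 bp in control cells, longer in both ATRA libraries. The other regions of this list lay near RUNX3, HHEX, LMO2, KLF13, BACH2 and a second site in ELF1, acetylated in each library, and near STAT5B, TCF4 and IKZF2, acetylated in some. The LMO2 region, 1209 bp long and upstream of a gene for a partner of GATA and TAL1 factors, was covered over its whole length by H3K27ac in each of the 4 libraries.

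Of 50 neutrophil granule and effector genes, 3 had a distal region, with 4 regions in all (0.444%, against 0.254% of all regions). In 3 of the 4, both ATRA libraries exceeded both control libraries in H3K27ac, where 29.3% of all regions did, and in 0 the reverse held, where it held in 3.92% of all. The clearest lay at chr13:31263451-31266826, upstream of ALOX5AP, which encodes the protein that presents arachidonic acid to 5-lipoxygenase for leukotriene synthesis. H3K27ac covered 2996 and 3376 bp of it with ATRA and 273 and 1465 bp in control cells, and H3K4me3 3300 and 3376 bp with ATRA and 1976 and 773 bp in control cells. A second region upstream of ALOX5AP, at chr13:31246674-31250111, overlapped between conditions, with 733 and 2365 bp with ATRA and 0 and 1175 bp in control cells. Upstream of LYN, a Src family kinase of myeloid cells, H3K27ac covered 2473 and 2473 bp with ATRA and 0 and 1904 bp in control cells. With 4 regions, these counts describe the regions and were not tested.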

How the data were processed

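Histone ChIP-seq peaks of HL-60 cells were analyzed for H3K4me3 and H3K27ac, with 2 replicates per mark of ATRA-treated and of control cells. The authors trimmed adapters, mapped reads with Bowtie to build hg19, and ran MACS2 in broad mode on every library by itself. Libraries of input DNA were made, and their use in peak calling is not given in the sources used here. The deposited −log10 q of each peak was used as a filter and as a description. The deposited fold and −log10 p columns hold values these measures cannot take and were not used. Whether the −log10 q beside them is sound was not checked, which limits the settings that filter or rank by it. Read depth is unknown, so precision rests on 2 libraries per condition.

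Peaks were merged when they overlapped or touched, and TSS were taken from GENCODE 44 lifted to GRCh37, in whose chromosomes all peaks fitted. A region had H3K27ac with at least 1 bp of overlap. Shares were compared across libraries with two-sided exact permutation tests (2 against 2, smallest p 0.33) or sign flips over 4 libraries (smallest p 0.13), checked on simulated peak lists. No test could pass 0.05. The distal regions, gene lists and rules for naming regions were chosen with earlier results of these data known. Named were the 6 longest regions, the 6 with the largest H3K27ac difference in each direction without overlap between conditions, the 6 longest without H3K27ac, the 6 farthest from a TSS, 3 on each side of the limit, and all with a B box or a listed neighbour. The fold of tRNA-like sequences (65 to 115 bases, anticodon letters sought within positions 33 to 38) was set after the data were seen. A few regions named by these rules are not reported here. Repeat content was not computed, as the genome used was not masked. Alternatives were the TSS set, distance, merging, thresholds, equal peak numbers, the replicate number as a block and the omission of any 1 library. Python 3.11.15, numpy 2.4.6, pandas 2.3.3, pysam 0.24.0, samtools 1.23.1 and matplotlib 3.10.9 were used.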

Additional observations from a re-analysis of the deposited data

How the results depend on the processing

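No setting gave an exact p under 0.05, which this number of libraries does not allow. The number of distal regions was 1851 with starts of protein-coding transcripts only, 1895 with 1 start per gene, 572 beyond 10 kb, and 337 with only peaks of −log10 q of at least 5. Leaving out H3K4me3 libraries gave 915 to 1476, the latter without control replicate 2. Their median length was 3403 bp with 1 start per gene, 887.5 bp for the stretch shared by the 4 libraries, and 1898 to 2191 bp with a library left out.

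The regions with H3K27ac in all libraries, in none, in both ATRA and no control library, in both control and no ATRA library, higher with ATRA and lower with ATRA changed with the size of the set. With protein-coding starts, they were 879, 265 and 57, with 383 higher and 63 lower. With 1 start per gene, they were 975, 239, 70 and 14, with 454 higher and 84 lower. Beyond 10 kb, they were 274, 74 and 16, with 116 higher and 22 lower. At the stricter threshold for both marks, they were 1, 227, 6 and 1, with 7 higher and 2 lower. For the shared stretch, 19 were lower. With H3K27ac over at least 0.5 of a region, 221 had it in all, 262 in none and 54 in ATRA alone. With equal numbers of H3K27ac peaks, 249 (longest) and 223 (highest −log10 q) had none and 32 and 68 had it in control cells alone, and with the highest −log10 q 75 had it in all libraries, 54 were higher and 94 lower. Over the libraries left out in turn, the 6 counts ran from 424 to 653, 126 to 193, 26 to 144, 7 to 33, 171 to 412 and 38 to 160. The most higher regions were without control H3K27ac replicate 2 and the most lower ones without control H3K27ac replicate 1. Without ATRA H3K27ac replicate 1, 389 were higher and 83 had it in ATRA alone, and without ATRA H3K27ac replicate 2, 107 were lower and 29 had it in control cells alone. Without control H3K4me3 replicate 2, 653 had it in all libraries, 193 in none, 67 in ATRA alone and 11 in control cells alone, and 323 were higher.

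The ATRA minus control difference of the share with H3K27ac turned to -0.444 points with equal numbers of the longest peaks and -12.9 points with those of highest −log10 q, where that of covered bases was -6.80 points. Leaving out libraries gave -2.39 to 21.5 points for the share, 0.634 to 21.3 for covered bases, and -4.44 to 8.40 for the difference between distal and promoter regions, which was below 0 without control H3K27ac replicate 1 or ATRA H3K27ac replicate 2. The distal minus promoter difference of the share was 26.6 points when H3K27ac had to cover at least 0.5 of a region, and was below 0 in the other 20 alternatives. Peak names of same-numbered libraries carry a common tag, and their deviations in H3K27ac length over the distal regions had r = 0.528 across regions. With 2 pairs this does not settle a pairing. With the replicate number as a block, the difference of the share stayed 9.545 points (exact sign-flip test over 2 pairs, p = 0.5, the smallest they allow), that of covered bases 10.95 points (p = 0.5) and that between distal and promoter regions 1.98 points (p = 1). The causes were not tested.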
